A study of Mus musculus with 8 samples.

Results

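The transcripts described here are 40 genes of the interferon response and of class I antigen presentation, taken by gene symbol from the 24047 rows of the count table. All 40 were found there, and all had at least 1 count. They were read in RNA from red fluorescent (tdTomato-positive) cells taken as astrocytes from mouse somatosensory cortex at postnatal days 23 to 25, in 4 WT and 4 Ptch1cKO libraries. All 8 came from mice with Glast-CreERT2, a Cre recombinase under the Glast promoter that acts after tamoxifen, and with the Ai14 reporter, which turns on tdTomato in cells where Cre has acted and in their progeny. All received tamoxifen on days 12 to 14. The Ptch1cKO mice also carried the floxed Ptch1 allele on both chromosomes (Ptch1fl/fl), and the WT mice did not. Ptch1 is the receptor that keeps Hedgehog signalling off until ligand binds. Nothing in the labels ties a library to an animal, and the p-values therefore describe spread between samples that may be technical.

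Interferons are secreted signals of infection and tissue damage. Type I interferons bind a receptor that contains Ifnar1 and activate a complex that contains Stat2 and Irf9, which binds the interferon-stimulated response element (ISRE) in DNA. Interferon gamma binds a receptor that contains Ifngr1 and acts through the gamma-activated site (GAS) and through Irf1. The genes switched on include antiviral effectors and the class I machinery, in which immunoproteasome subunits cut proteins, the Tap transporter carries the peptides into the endoplasmic reticulum, Tapbp helps load them, and the class I heavy chain with B2m shows them at the cell surface. In the brain, microglia and blood vessel cells carry much of the basal class I and interferon-stimulated RNA, and astrocytes can also respond to interferons.

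Promoter sequence is shown first. Many of the genes were chosen as interferon-stimulated, and the ISRE is the site bound after type I interferon. A high share of ISRE matches therefore follows in part from the choice. Windows of 300 bases around the RefSeq transcription start (250 before and 50 after, GRCm38.p6, the same assembly as mm10) were found for 33 of the 40 genes. An exact ISRE, read as GAAA, any 2 bases and GAAA (on the other strand TTTC, any 2 bases and TTTC), with overlapping matches counted, was present in 17 of the 33 genes (51.5%) and in 3.99% of all 27025 genes with a window. A GAS, read as TTCNNNGAA, was present in 10 of the 33 (30.3%) and in 9.55% of all genes. Among the class I genes, 1 of 6 with a window held an exact ISRE. A match is a stretch of letters and does not show that a factor was bound, and no match says only that these letters were not in the window. The stretches below are upstream of the start, written 5′ to 3′ on the gene's strand, with the ISRE in capitals. Ifit1 and Ifit3 are shown for a shared pair of matches, Isg15 for 3 overlapping matches, Gbp3 and Gbp7 for neighbouring genes with the same core, and B2m as the most abundant of the 40. The named-gene rule took only Ifit3 and B2m, and the other 4 were chosen after their sequences were seen.
Ifit1, chr19:34640759-34640838, plus strand: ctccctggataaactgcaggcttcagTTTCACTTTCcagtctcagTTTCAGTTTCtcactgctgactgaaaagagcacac
Ifit3, chr19:34583349-34583438, plus strand: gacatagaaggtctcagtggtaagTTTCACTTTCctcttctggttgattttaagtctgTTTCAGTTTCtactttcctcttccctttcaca
Isg15, chr4:156200859-156200928, minus strand: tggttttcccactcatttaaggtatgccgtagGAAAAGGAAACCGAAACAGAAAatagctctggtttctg
Gbp3, chr3:142559954-142560018, plus strand: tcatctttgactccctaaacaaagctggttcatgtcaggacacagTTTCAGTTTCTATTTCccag
Gbp7, chr3:142530246-142530310, plus strand: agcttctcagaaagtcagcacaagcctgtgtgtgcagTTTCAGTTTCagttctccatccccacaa
B2m, chr2:122147517-122147596, plus strand: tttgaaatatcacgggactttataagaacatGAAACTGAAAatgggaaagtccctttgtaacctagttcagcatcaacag

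In Ifit1 the matches begin 104 and 85 bases before the start, and in Ifit3 156 and 122 bases before it. The same letters come in the same order in both genes. In Isg15 the 3 matches begin 78, 72 and 66 bases before the start and share bases. Position in the genome was a further shared feature. Of the 40 genes, 16 lay within 100 kb of another of them. These were the Ifit genes on chromosome 19, the Gbp genes on chromosome 3, Oasl1 and Oasl2 on chromosome 5, Mx1 and Mx2 on chromosome 16, and 6 class I genes of the major histocompatibility region on chromosome 17.

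The libraries held 4061274 to 7206462 counts. The 40 genes together took 0.0112 to 0.0436% of them, so most were read from few counts. Levels are CPM, counts per 1000000 of the TMM-scaled library size, unless stated. Ptch1, the targeted gene, had 285, 227, 491 and 425 CPM in WT replicates 1 to 4 and 219, 249, 168 and 258 CPM in Ptch1cKO replicates 1 to 4. These ranges overlapped, and the log2 fold change was -0.67 (SE 0.22; adjusted p = 0.349 by edgeR with Benjamini-Hochberg correction). A count over the whole gene also reads exons outside the floxed part, so it checks the labels only in part. WT replicates 2 and 3 had 1148 and 612 counts of Xist, which is expressed in females, and the other 6 libraries had at most 4. Summed over 12 astrocyte markers, the libraries held 16404 to 33754 CPM. Oligodendrocyte markers were also high, at 13751 to 26619 CPM summed over 7 genes, and 16 microglial markers gave 498 to 1468 CPM. Endothelial markers summed to 7.87 to 23.5 CPM over 10 genes. Markers of T cells and NK cells summed to at most 1.65 CPM over 7 genes, with Cd3d, Cd8a and Nkg7 at 0 in every library. In bulk RNA of this kind, a different number of cells of a type and a different amount of RNA per cell cannot be told apart.

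Of the 40 genes, 19 had enough counts to be tested, and 0 of the 19 passed between Ptch1cKO and WT (edgeR, Benjamini-Hochberg adjusted p under 0.05 among 10954 genes). The share called over all genes tested was 0.1%. DESeq2, which called 0.694% of all genes tested, and limma on the authors' TPM called 0 of the 19 as well. Adjusted p-values of the 19 by edgeR ran from 0.349 to 0.984. In 6 of the 19 the unadjusted p was under 0.05, all with the higher mean in Ptch1cKO. Over all genes 4.8% had such a p with the higher mean in Ptch1cKO, and 9.34% in either direction. These 6 were H2-K1, Oasl2, Ifi27, Ifit3, Tapbp and B2m. Of the 19 log2 fold changes, 16 were positive and the median of the 19 was 0.74, beside 49.6% positive and a median of -0.0019 over all genes tested. Genes that share samples and vary together do not count as separate observations. In addition, 6 of the 19 did not reach the filter's minimum of 1.65 CPM in all 4 WT libraries. These were Stat2, Irf9, Oasl2, Trim30a, Tapbp and Psmb8. They entered the test partly through Ptch1cKO libraries, so the counts given above are not a measure over all 40. With no count filter, 35 of the 40 were positive, beside 45.3% of 20578 genes, and 1 of the 40, Psmb9, passed.

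**Figure D1:**
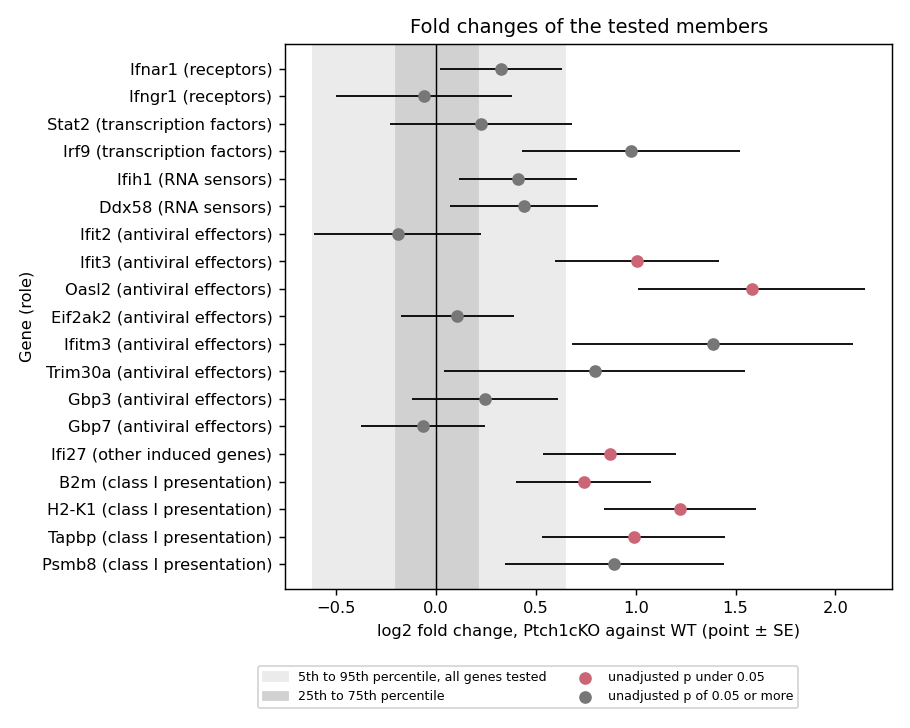
Log2 fold change of each of the 19 tested genes (points, with SE as bars; Ptch1cKO against WT), with the spread of all 10954 tested genes as grey bands. The points run from -0.19 for Ifit2 to 1.58 for Oasl2, and the 6 red points have an unadjusted p under 0.05.

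Class I presentation held the most abundant transcripts. By the authors' TPM, which also scale for length, B2m was highest at 187 ± 77.2 in WT and 286 ± 120 in Ptch1cKO (SD, n = 4), and H2-K1 had 55.3 ± 16.7 and 118 ± 68.9 (SD, n = 4). H2-K1 encodes a class I heavy chain and is at 33996017 to 34000347 of chromosome 17 (mm10, minus strand). It had 33.1, 43.5, 20.1 and 31.3 CPM in WT replicates 1 to 4 and 125, 32.1, 96.7 and 44.8 CPM in Ptch1cKO replicates 1 to 4. Ptch1cKO replicates 1 and 3 were far above the WT range, replicate 4 just above it and replicate 2 within it. The log2 fold change was 1.22 (SE 0.38), a 2.33-fold difference in means with the smallest p of the 19 (unadjusted p = 0.00718 by edgeR and Benjamini-Hochberg adjusted p = 0.349). Class I heavy chain genes are near copies of each other, and H2-Q6, H2-Q7 and H2-T22 were at 0 counts in all 8 libraries, so the assignment of reads among these genes is uncertain.

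B2m is the light chain that every classical class I molecule needs (chromosome 2, 122147686 to 122153083, plus strand). Its levels were 56.0, 79.8, 25.7 and 54.8 CPM in WT and 132, 53.3, 114 and 61.6 CPM in Ptch1cKO. Again Ptch1cKO replicates 1 and 3 were above every WT library and replicates 2 and 4 were within the WT range. Its log2 fold change was 0.74 (SE 0.34; unadjusted p = 0.0492 by edgeR and Benjamini-Hochberg adjusted p = 0.531). Tapbp, the tapasin that bridges the Tap transporter and class I molecules (chromosome 17, 33915899 to 33929292, plus strand), had 1.35, 2.20, 1.82 and 0.823 CPM in WT and 4.40, 2.09, 3.94 and 2.15 CPM in Ptch1cKO. The same pair of Ptch1cKO libraries was above the WT range. Tapbp reached the filter's minimum in 2 WT and 4 Ptch1cKO libraries, so it entered the test partly through the group where it was higher. Its log2 fold change was 0.99 (SE 0.46; adjusted p = 0.529 by edgeR with Benjamini-Hochberg correction), from at most 31 counts in a library, and its exons overlap those of Zbtb22 and Gm19412.

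The immunoproteasome subunits Psmb8 and Psmb9 had a like pattern by library. Psmb10, a further subunit outside the genes chosen here, did not share it. Psmb10 had 10.8, 10.4, 13.7 and 6.79 CPM in WT and 8.66, 7.30, 14.8 and 10.4 CPM in Ptch1cKO. The log2 fold change of Psmb10 was -0.04 (SE 0.29). Psmb8 (chromosome 17, 34197721 to 34201454, plus strand) had 3.70, 4.87, 0.839 and 3.71 CPM in WT and 9.94, 3.13, 9.10 and 2.15 CPM in Ptch1cKO. Only Ptch1cKO replicates 1 and 3 were above the WT libraries, and the log2 fold change was 0.89 (SE 0.55; adjusted p = 0.653 by edgeR with Benjamini-Hochberg correction). Psmb9 (chromosome 17, 34181987 to 34187764, minus strand) was below the filter, with counts of 1, 8, 5 and 4 (WT) and 34, 4, 28 and 14 (Ptch1cKO). Here 3 of 4 Ptch1cKO libraries were above all WT libraries. The pooled ratio per effective library size was 4.72 (95% exact interval 2.80 to 8.36, for counting error). Without the count filter Psmb9 passed (log2 fold change 2.27, SE 0.59; adjusted p = 0.0200 by edgeR with Benjamini-Hochberg correction), in a fit that called 0.967% of all genes. The 5′ ends of Psmb9 and Tap1 overlap on opposite strands, and no source used here says whether reads were counted by strand. The transporter subunits were low. For Tap1 the pooled counts were 19 (WT) and 20 (Ptch1cKO), and Tap2 had 1 count in each WT library and 5, 2, 2 and 6 in those of Ptch1cKO. The groups of Tap2 did not overlap, but by 1 count against 2 in Ptch1cKO replicates 2 and 3. The like share of genes below the filter was not counted. Without the count filter Tap2 had an unadjusted p of 0.118 by edgeR and a Benjamini-Hochberg adjusted p of 0.637.

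**Figure D2:**
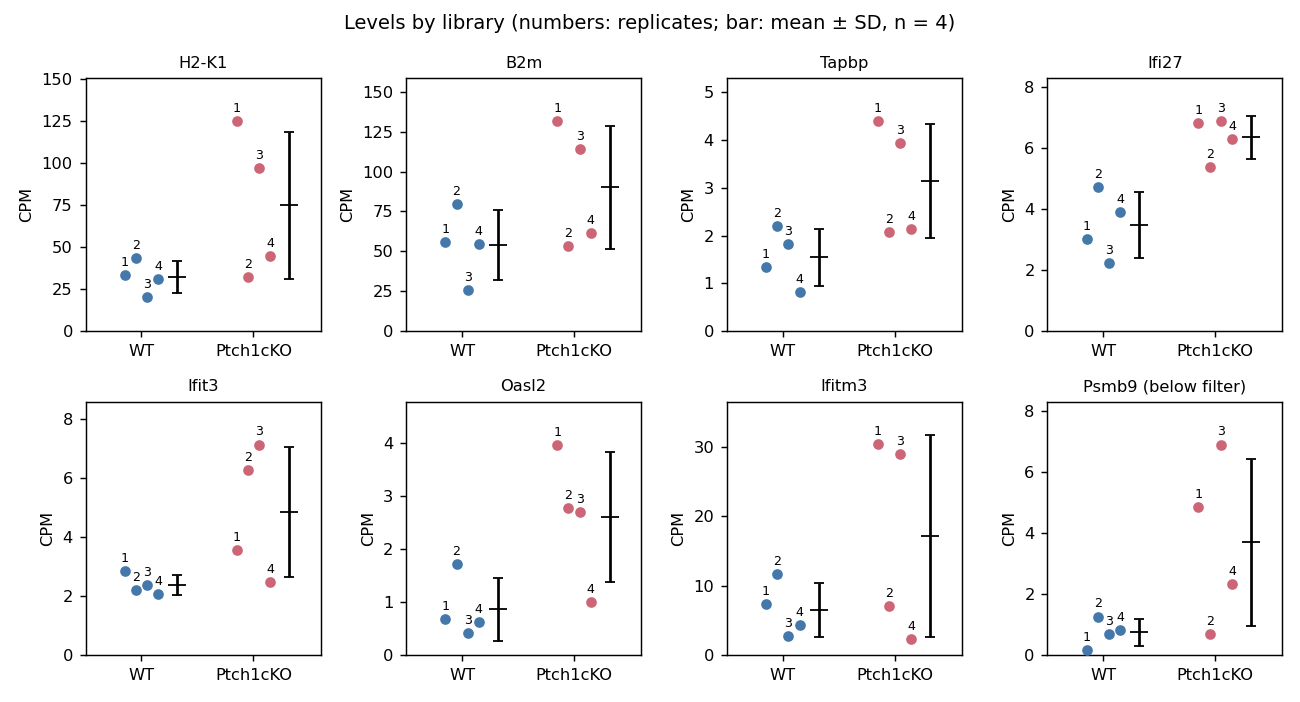
CPM of 8 genes in each library (points, numbered by replicate), with the mean and SD of each group as a bar beside them (n = 4). In H2-K1, B2m, Tapbp, Ifitm3 and Psmb9 the points of Ptch1cKO replicates 1 and 3 are the highest, and in Ifi27 all 4 Ptch1cKO points are above the 4 WT points.

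Among the interferon-induced genes, Ifi27 alone of the 19 had no overlap between groups. Over all genes tested 2.52% had every Ptch1cKO library above every WT library, and 5.02% had no overlap in either direction. Ifi27, a small mitochondrial and nuclear-envelope protein gene that type I interferon induces (chromosome 12, 103434211 to 103440239, plus strand), had 3.03, 4.71, 2.24 and 3.91 CPM in WT and 6.82, 5.39, 6.89 and 6.28 CPM in Ptch1cKO. The Ptch1cKO libraries lay close together here, unlike those of the class I genes. In log2 units the fold change was 0.87 (SE 0.33; unadjusted p = 0.0195 by edgeR and Benjamini-Hochberg adjusted p = 0.435).

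Oasl2, an oligoadenylate synthetase-like antiviral protein (chromosome 5, 114896936 to 114912234, plus strand), had the highest fold change of the 19. Its levels were 0.673, 1.73, 0.419 and 0.618 CPM in WT and 3.98, 2.78, 2.71 and 0.992 CPM in Ptch1cKO, from 3 to 28 counts in a library. Ptch1cKO replicates 1, 2 and 3 were above all WT libraries and replicate 4 was within their range. Oasl2 reached the filter's minimum in 1 WT and 3 Ptch1cKO libraries, so its place in the test depended on the group where it was higher. The difference on the log2 scale was 1.58 (SE 0.57; unadjusted p = 0.0135 by edgeR and Benjamini-Hochberg adjusted p = 0.405). It was 2.2 without WT replicate 2. No exact ISRE was found in its window.

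The Ifit genes, whose proteins bind foreign RNA, did not share a pattern although they are neighbours. Ifit3 (chromosome 19, 34583531 to 34588731, plus strand) had 2.86, 2.20, 2.38 and 2.06 CPM in WT and 3.55, 6.26, 7.13 and 2.48 CPM in Ptch1cKO. Its highest libraries were Ptch1cKO replicates 3 and 2, and replicate 4 was within the WT range. The log2 fold change was 1.01 (SE 0.41; unadjusted p = 0.0272 by edgeR and Benjamini-Hochberg adjusted p = 0.466). Ifit2 had 6.73, 5.34, 3.35 and 3.29 CPM in WT and 5.11, 1.74, 6.40 and 3.31 CPM in Ptch1cKO. Ptch1cKO replicate 2 was the lowest library and the other 3 were within the WT range, with a log2 fold change of -0.19 (SE 0.42) that turned positive without WT replicate 1 (0.03) or Ptch1cKO replicate 2 (0.07). Ifit1 was below the filter, with pooled counts of 23 (WT) and 52 (Ptch1cKO) and a ratio of 2.40 (95% exact interval 1.44 to 4.11, counting error only).

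Ifitm3, which blocks virus entry at membranes, was the most abundant antiviral effector, at 30.8 ± 18.3 TPM in WT and 73.8 ± 61.9 TPM in Ptch1cKO in the authors' deposited table (SD, n = 4). It had 7.40, 11.6, 2.80 and 4.32 CPM in WT and 30.4, 7.12, 29.0 and 2.31 CPM in Ptch1cKO. The Ptch1cKO group thus held both the highest libraries, replicates 1 and 3, and the lowest, replicate 4, with a 13.1-fold ratio between its replicates 1 and 4. On the log2 scale the fold change was 1.39 (SE 0.70; unadjusted p = 0.0758 by edgeR and Benjamini-Hochberg adjusted p = 0.595). The guanylate-binding GTPases Gbp3 and Gbp7 had log2 fold changes of 0.24 (SE 0.37) and -0.07 (SE 0.31). Gbp7 had 24.7 CPM in WT replicate 1 and 9.23 to 16.7 CPM in the other 7 libraries, and its log2 fold change was 0.34 without WT replicate 1 and 0.04 without Ptch1cKO replicate 4. Eif2ak2, the kinase PKR that halts translation on double-stranded RNA, had 8.11 to 19.1 CPM in WT and 10.4 to 17.4 CPM in Ptch1cKO. Its log2 fold change of 0.11 (SE 0.28) was negative without WT replicate 3 (-0.07) or Ptch1cKO replicate 2 (-0.02). Trim30a, a ubiquitin-ligase family protein, had 0 to 20 counts in WT and 5 to 33 in Ptch1cKO, with a log2 fold change of 0.79 (SE 0.76). That value rested on single libraries, at 1.69 without WT replicate 1 and 0.21 without Ptch1cKO replicate 1, and was 0.067 in the 6 libraries with few Xist counts.

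Among the receptors and transcription factors, 0 of 4 tested genes had an unadjusted p under 0.05. The receptor subunit Ifnar1 had 4.71 to 5.97 CPM in WT and 4.69 to 8.69 CPM in Ptch1cKO. Ifngr1, the receptor gene with the higher TPM, had 4.04, 4.40, 2.24 and 2.26 CPM in WT and 3.55, 2.26, 5.17 and 1.65 CPM in Ptch1cKO. Their log2 fold changes were 0.32 (SE 0.31) and -0.06 (SE 0.44), and that of Ifngr1 turned positive when either of WT replicates 1 and 2, or either of Ptch1cKO replicates 2 and 4, was left out (up to 0.16). Stat2 had a log2 fold change of 0.22 (SE 0.45), which was -0.08 without WT replicate 3. Irf9, the DNA-binding partner of Stat2, had 1.68, 1.57, 1.12 and 4.12 CPM in WT and 4.12, 4.00, 7.38 and 1.16 CPM in Ptch1cKO. Ptch1cKO replicate 3 was the highest and replicate 4 was near the lowest WT library. Its log2 fold change was 0.98 (SE 0.54; adjusted p = 0.621 by edgeR with Benjamini-Hochberg correction), and its exons overlap those of Rnf31 on the same strand.

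The cytosolic sensors of viral RNA were both tested. Ifih1 (MDA5) had 8.75, 13.5, 10.1 and 9.88 CPM in WT and 18.7, 10.6, 18.7 and 8.26 CPM in Ptch1cKO. Replicates 1 and 3 of Ptch1cKO were again above all WT libraries, and replicate 4 was the lowest library of all. Ddx58 (RIG-I) had 2.26 to 2.99 CPM in WT and 2.78 to 4.43 CPM in Ptch1cKO. The log2 fold changes were 0.41 (SE 0.30) and 0.44 (SE 0.37), with p-values of 0.726 and 0.776 by edgeR after Benjamini-Hochberg adjustment.

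The other 21 genes were below the count filter, with at most 34 counts in a library, and are given as counts without a test of their own. For 19 of them a pooled ratio with a 95% exact interval could be formed, and the ratios ran from 0.572 for Rtp4 to 8.85 for Cxcl10. These intervals cover counting error only and leave out the spread between libraries. The chemokine Cxcl10, which attracts T cells, had counts of 1, 1, 0 and 1 (WT) and 11, 0, 14 and 0 (Ptch1cKO). The pooled ratio of 8.85 (95% exact interval 2.70 to 45.8) thus came entirely from Ptch1cKO replicates 1 and 3. Irf7, the factor that amplifies type I interferon production, had counts of 1, 1, 0 and 3 (WT) and 17, 0, 7 and 3 (Ptch1cKO), a pooled ratio of 5.73. For Usp18, which removes Isg15 from proteins and dampens the receptor, the pooled counts were 3 (WT) and 13 (Ptch1cKO). Ifi44 had counts of 1, 4, 4 and 3 (WT) and 15, 0, 13 and 1 (Ptch1cKO). Gbp2 had 24 and 55 pooled counts and a ratio of 2.43 (95% exact interval 1.48 to 4.11). In Irf7, Usp18, Ifi44 and Gbp2, as in Cxcl10, Ptch1cKO replicates 1 and 3 held the 2 highest counts of the group.

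Several genes that are often used as readouts of an interferon response were almost absent. Isg15, a ubiquitin-like modifier, had counts of 5, 3, 1 and 0 (WT) and 7, 2, 0 and 0 (Ptch1cKO), although its promoter holds 3 matches to the ISRE. Mx1 had 2 and 3 pooled counts and Oasl1 had 0 and 3, so no ratio is given, since neither group exceeded 3 counts. Oas1a had 1 and 5 pooled counts, Bst2 3 and 7, Ifi35 6 and 7, Xaf1 8 and 11, and Mx2 9 and 18. Rtp4 was lower in Ptch1cKO by pooled counts, at 7 beside 13. Irf1 had 30 and 27, Rsad2 27 and 26, and Parp14 37 and 48. For each of these genes with a ratio, the 95% exact interval included 1.

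**Figure D3:**
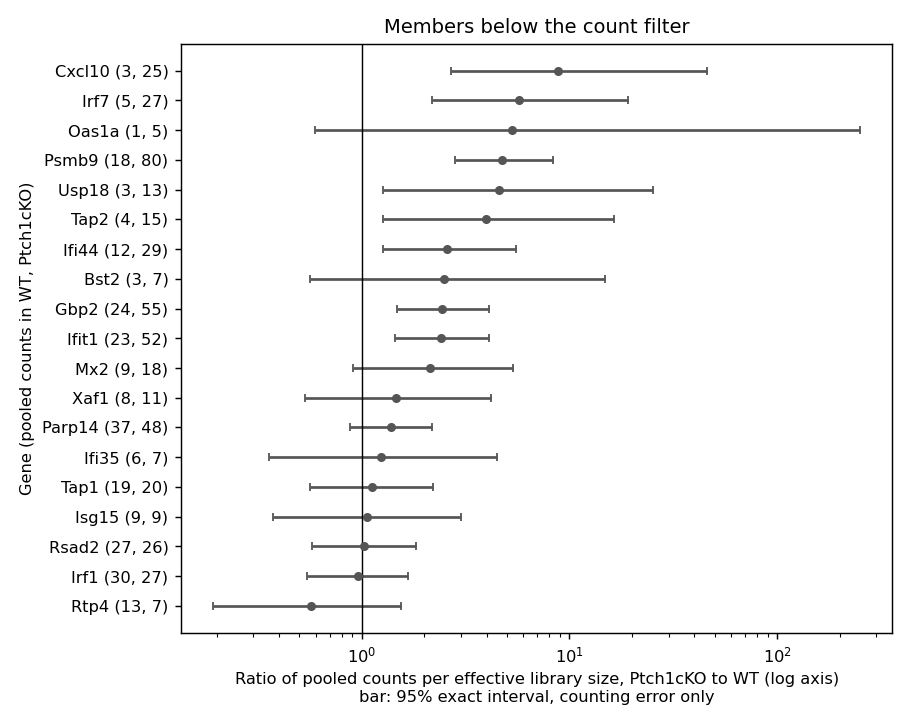
Ratio of pooled counts per effective library size, Ptch1cKO to WT, on a log axis for 19 of the 21 genes below the count filter, with 95% exact intervals for counting error only. Pooled counts in WT and Ptch1cKO stand beside each name. The ratios run from 0.572 for Rtp4 to 8.85 for Cxcl10.

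The pattern by library was the main feature of these genes. Ptch1cKO replicate 1 was the highest library for 8 of the 19 tested genes and Ptch1cKO replicate 3 for 7, where these libraries were highest for 7.87% and 15.1% of all genes tested. WT replicate 1 was highest for 2, WT replicate 4 and Ptch1cKO replicate 2 for 1 each and the other 3 libraries for 0, beside 11.4%, 17.5% and 15.6% of all genes, and 11.2%, 13.1% and 8.18% for WT replicates 2 and 3 and Ptch1cKO replicate 4. Ptch1cKO replicates 1 and 3 were both above all WT libraries for 12 of the 19, beside 8.38% of all genes tested. These 2 libraries held the 2 highest values in 10 of the 19 (52.6%), beside 4.62% of all genes tested. Among these 10, Ptch1cKO replicates 2 and 4 did not exceed the highest WT library in Irf9, Ifih1, Ifitm3, Gbp3, B2m, Tapbp and Psmb8. In Ddx58, Ifi27 and H2-K1 at least 1 of them did, and the like share of all genes was not counted. Of the 10, Irf9, Tapbp and Psmb8 entered the test partly through Ptch1cKO libraries, as did Oasl2 of the 12. The counts by library given here are thus partly set by the count filter. The level of a gene relative to its WT mean, as the median over the 19 on the log2 scale, was 0.12, 0.36, -0.50 and 0.02 in WT replicates 1 to 4. It was 0.82, 0.14, 0.94 and 0.06 in Ptch1cKO replicates 1 to 4. Over all genes tested, the same median lay between -0.0059 (WT replicate 2) and 0.020 (Ptch1cKO replicate 3). The groups overlapped on this measure. It is a description of genes chosen with earlier results known, so no test is given. Without Ptch1cKO replicate 1 or without Ptch1cKO replicate 3, 3 genes had an unadjusted p under 0.05 in place of 6, and 10 had one without Ptch1cKO replicate 4. Over all genes of these fits the share was 9.23% without Ptch1cKO replicate 1, 8.04% without replicate 3 and 6.83% without replicate 4, beside 9.34% with all 8 libraries. The median log2 fold change was 0.46 without Ptch1cKO replicate 1, 0.57 without Ptch1cKO replicate 3 and 0.50 without WT replicate 3. Every fit without a library applied the count filter anew, so its genes need not be the same 19. Without WT replicate 3, 22 of the genes were tested.

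**Figure D4:**
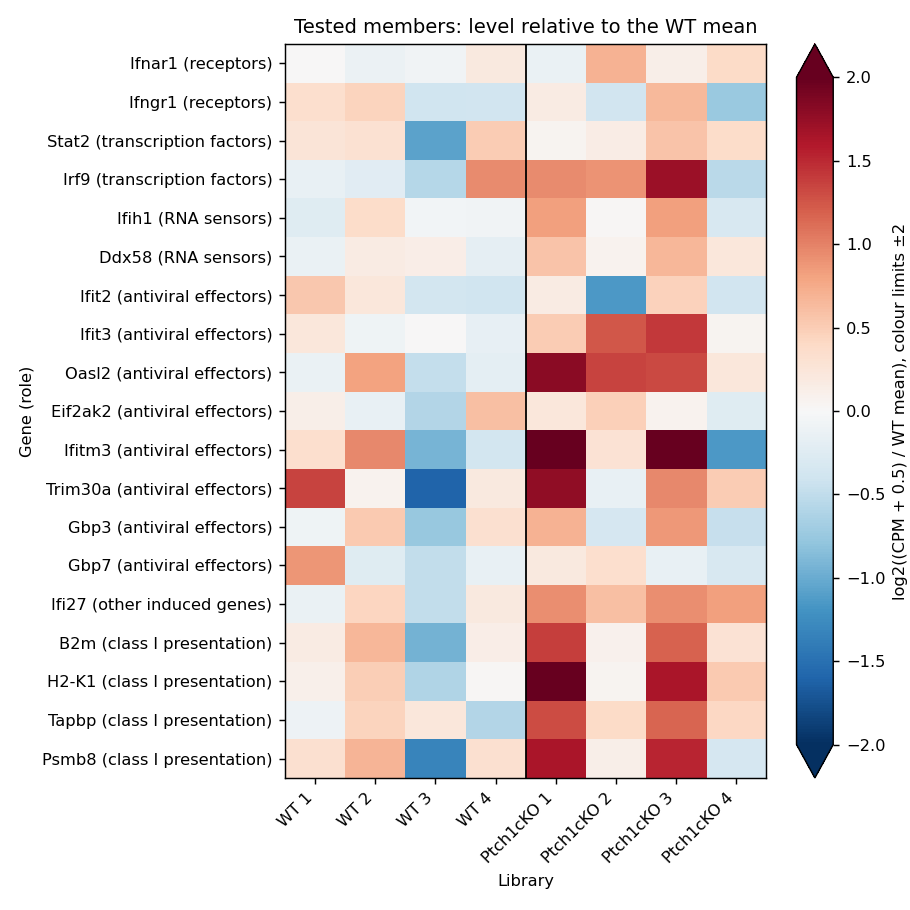
Level of each of the 19 tested genes (rows, ordered by role) in each library (columns) as log2 of CPM + 0.5 minus the WT mean of that value, red above and blue below, with colours ending at ±2. The columns of Ptch1cKO 1 and 3 are red in most rows (medians 0.82 and 0.94), those of Ptch1cKO 2 and 4 are near the WT columns (0.14 and 0.06), and WT 3 is mostly blue (-0.50).

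Microglial markers moved with this pattern in part. Their summed level was 797, 942, 498 and 766 CPM in WT replicates 1 to 4 and 1118, 575, 1468 and 896 CPM in Ptch1cKO replicates 1 to 4. Ptch1cKO replicates 3 and 1 were the highest here too, and WT replicate 3 was the lowest. All 16 markers had positive log2 fold changes (median 0.65). By edgeR and by DESeq2 0 of the 16 passed after Benjamini-Hochberg adjustment over all genes, and 4 had an unadjusted p under 0.05 by edgeR. None of the 16 was at 0 in any library. Of the 7 oligodendrocyte markers, 6 had positive log2 fold changes (median 0.41). By edgeR 0 of the 7 passed and 4 had an unadjusted p under 0.05, beside 9.34% of all genes. Their summed level was 13751 to 26619 CPM in WT and 17455 to 23094 CPM in Ptch1cKO. Transcripts of class II antigen presentation, made mainly by professional antigen-presenting cells, were low. Over 6 class II genes the libraries had counts of 25, 47, 14 and 19 (WT) and 269, 11, 41 and 21 (Ptch1cKO). In CPM these sums were 4.21, 7.39, 1.96 and 3.91 in WT and 38.2, 1.91, 10.1 and 3.47 in Ptch1cKO. Ptch1cKO replicates 1 and 3 were thus above the WT range in CPM. Ptch1cKO replicate 1 stood apart, with 103 counts of the class II chain H2-Aa and 73 of the invariant chain Cd74, both named after their values were seen. The perivascular macrophage markers summed to 6.06 to 17.5 CPM in WT and 2.21 to 22.4 CPM in Ptch1cKO over 6 genes, and endothelial markers to 12.1 to 23.5 and 7.87 to 21.2 CPM.

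Set against the microglial level of its own library, H2-K1 had 41.6, 46.2, 40.4 and 40.8 CPM per 1000 CPM of microglial markers in WT and 112, 55.9, 65.8 and 50 in Ptch1cKO. The groups did not overlap on this ratio, as was so, with Ptch1cKO higher, for 0.164% of all genes tested (2.66% in either direction). The microglial sum was itself highest in Ptch1cKO replicates 3 and 1, so dividing by it lowers every gene there relative to its CPM. The small share with Ptch1cKO higher depends on this. For B2m the same ratio was 70.3, 84.8, 51.6 and 71.5 in WT and 118, 92.7, 77.6 and 68.8 in Ptch1cKO, and the groups overlapped. For Psmb8 it was 4.65, 5.17, 1.68 and 4.84 in WT and 8.89, 5.44, 6.20 and 2.40 in Ptch1cKO, also with overlap. Ifi27, whose groups did not overlap in CPM, had 3.80, 5.01, 4.49 and 5.11 in WT and 6.10, 9.36, 4.69 and 7.01 in Ptch1cKO, where replicate 3 was within the WT range. The groups of Ifitm3, Oasl2 and Ifit3 overlapped as well. These ratios were chosen after the values were seen and carry no test, and the part of microglial RNA in the differences was not tested.

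**Figure D5:**
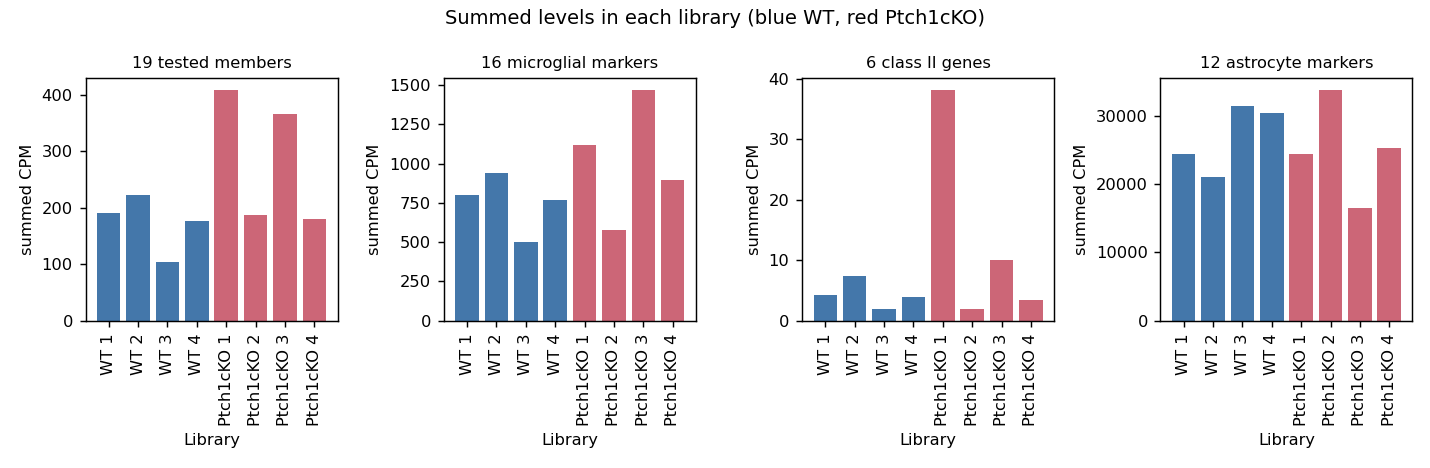
Summed CPM in each library for the 19 tested genes, 16 microglial markers, 6 class II genes and 12 astrocyte markers (bars from 0, WT blue and Ptch1cKO red). Ptch1cKO 1 and 3 are highest for the first pair of panels. For class II, Ptch1cKO 1 stands out at 38.2 CPM, followed by Ptch1cKO 3 at 10.1 CPM. Ptch1cKO 3 is lowest for astrocyte markers at 16404 CPM.

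Sex-linked transcripts also differed between the groups, since all 4 Ptch1cKO libraries had under 10 Xist counts and 2 of the 4 WT libraries did. Among the 6 libraries with under 10, of which WT replicates 1 and 4 are the WT arm, 25 of the 40 genes were tested and 0 passed by edgeR with Benjamini-Hochberg adjustment. In 5 of the 25 the unadjusted p was under 0.05, and 20 had positive log2 fold changes with a median of 0.70. Over the 11498 genes of that fit 7.91% had such a p and 50.4% were positive. There the log2 fold change of H2-K1 was 1.21 (SE 0.49) and that of Ifi27 0.87 (SE 0.40), both near their values from all 8 libraries. The value for Stat2 was -0.11 and that for Eif2ak2 -0.23, both opposite in sign to those from all 8 libraries.

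The rest of the pathway was read from a list of 95 further genes, of which 93 had a row, 85 a count and 40 enough counts to be tested. By edgeR 0 of the 40 passed after Benjamini-Hochberg adjustment over all genes, beside 0.1% of all genes tested. Log2 fold changes were positive for 27 and negative for 13, with a median of 0.13, beside 49.6% positive over all genes tested. The unadjusted p was under 0.05 for 4 with the higher mean in Ptch1cKO and 2 with the lower. Over all genes tested the share was 9.34% in either direction and 4.8% with Ptch1cKO higher. The smallest p was that of H2-T23, a nonclassical class I heavy chain (Qa-1). It had 3.03, 2.83, 3.21 and 2.68 CPM in WT and 16.6, 1.04, 25.1 and 10.7 CPM in Ptch1cKO. Replicates 1, 3 and 4 of Ptch1cKO were above the narrow WT range and replicate 2 was below it. The log2 fold change was 2.16 (SE 0.60; adjusted p = 0.300 by edgeR with Benjamini-Hochberg correction). For H2-D1, another class I heavy chain, it was 0.49 (SE 0.48), with Ptch1cKO replicates 1 and 3 the highest and replicate 2 the lowest library. Of the 10 class I genes of the list that were tested, 5 had positive and 5 negative log2 fold changes, with a median of 0.17. H2-T23 passed by DESeq2 (Benjamini-Hochberg adjusted p = 0.0294), which called 0.694% of all genes, and by edgeR without Ptch1cKO replicate 2 (Benjamini-Hochberg adjusted p = 0.00459). Without the count filter 5 genes of the list passed, in a fit that called 0.967% of all genes. These were H2-T23, H2-Q4, H2-M3, Gbp6 and Cd74. Of the 94 Ptch1cKO counts of Cd74, 73 were in replicate 1.

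Lgals3bp, a secreted glycoprotein that interferons induce, had 5.89, 7.23, 5.73 and 6.18 CPM in WT and 16.8, 10.1, 17.7 and 6.94 CPM in Ptch1cKO, with a log2 fold change of 1.03 (SE 0.31; adjusted p = 0.325 by edgeR with Benjamini-Hochberg correction). Only Ptch1cKO replicate 4 was within the WT range. Pdia3, a chaperone of the endoplasmic reticulum that also serves class I loading, had 265 to 352 CPM in WT and 224 to 265 CPM in Ptch1cKO, every Ptch1cKO library being below every WT library, with a log2 fold change of -0.34 (SE 0.12; adjusted p = 0.418 by edgeR with Benjamini-Hochberg correction). Interferon RNA itself was hardly read. Of the 6 ligand genes listed, Ifnb1 had 1 count in WT and 3 in Ptch1cKO, Ifnk had 1 count in WT, and the other 4, Ifng among them, had 0 counts in all 8 libraries.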

How the data were processed

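Per the labels' protocols, cDNA from sorted cells was made with a low-input system and enriched by exome capture, so levels of different genes depend on capture as well as abundance. bcl2fastq 2.18, STAR 2.5 and the build mm10 are named in the submitters' processing notes. For the counting program, the annotation and the use of strand, nothing is given in these sources. Deposited counts are whole reads per gene symbol, not normalized, and the deposited TPM were computed by the authors. Gene positions are from GENCODE M21 (GRCm38), and all 40 symbols matched.

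The members and gene lists were chosen with earlier results of these data known. Counts were fitted in R 4.3.3 with edgeR 4.0.16 (filterByExpr with minimum count 10, which kept 10954 of 20578 genes, TMM factors, robust quasi-likelihood test, group as the only term), and the test was checked on simulated data. The SE is the log2 fold change divided by the square root of F. Alternatives used DESeq2 1.42.0, limma 3.58.1 on log2(TPM + 1), other scaling factors, no filter, a replicate block and fewer libraries. No pair of libraries agreed within sampling noise. Values in all libraries were due for genes with an unadjusted p under 0.05 or no overlap and for the highest TPM of each role. Others so shown, such as Psmb8, Psmb9, Ifit2 and Irf7, were chosen after their values were seen.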

Additional observations from a re-analysis of the deposited data

Results flagged for a closer look

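Gbp7 in WT replicate 1, at 24.7 CPM, lay far from the other 3 WT libraries, which had 9.23 to 11.7 CPM. The gap to the nearest of them was 0.838 of the range of the group, above the 95% critical value of Dixon's test for a group of this size. It was the only such value among 44 groups of 4 libraries examined, where chance gives about 1 in 20.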

How the results depend on the processing

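Over 15 alternatives, 0 of the tested genes among the 40 passed, except that Psmb9 passed with no count filter. That fit tests all 40, leaves 0 below the filter, and gave 12 with an unadjusted p under 0.05 (9.79% of all genes). It gave 35 positive (45.3% of all genes) and called 5 further pathway genes (0.967% of all genes). DESeq2 called 1 pathway gene (0.694% of all genes), and leaving out single libraries gave 0 to 1. Leaving out single libraries gave 3 to 10 genes of the 40 with an unadjusted p under 0.05, beside 6.83 to 9.54% of all genes. The replicate block gave 3 (7.14% of all genes), called 0 of the 40, and turned Gbp7 to 0.0068. Libraries with the same number in their titles did not deviate together (correlations -0.17 to 0.02, with 0 of 8 libraries closest to their own number). The numbers were therefore not taken as pairs. Of 285 values of single genes under alternatives, 271 kept their direction and side of the threshold and 14 changed sign, in 5 genes. In the 6 libraries with under 10 Xist counts, Stat2 was -0.11 and Eif2ak2 -0.23. Leaving out single libraries gave -0.37 to 0.16 for Ifngr1, -0.45 to 0.067 for Ifit2, -0.081 to 0.41 for Stat2, -0.067 to 0.35 for Eif2ak2 and -0.23 to 0.34 for Gbp7. The cause was not tested. Over all genes, 11 were called, in place of which 199 were with no count filter, 76 by DESeq2, 5 with the replicate block, 3 in the 6 libraries, 2 by limma on TPM and 1 to 19 without single libraries. On log2(TPM + 1), 35.9% of all genes were positive, in place of 49.6%. Genes with few counts limit what could be called.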

Other observations

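Ifitm2, a close relative and neighbour of Ifitm3, did not follow it. It had 3.53, 3.61, 5.45 and 5.15 CPM in WT replicates 1 to 4 and 3.55, 1.39, 1.97 and 1.16 CPM in Ptch1cKO replicates 1 to 4, and the groups overlapped in Ptch1cKO replicate 1 only. The log2 fold change was -1.11 (SE 0.43; unadjusted p = 0.0202 by edgeR and Benjamini-Hochberg adjusted p = 0.442). Ccl5, a chemokine of T cells and activated microglia, had counts of 14, 21, 4 and 10 (WT) and 78, 2, 45 and 5 (Ptch1cKO), so that Ptch1cKO replicates 1 and 3 were the highest for it too. Both were named after their values were seen.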
